A study of Homo sapiens with 96 samples.

Results

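The snoRNA host genes of the count table were taken by name, as every gene entry called SNHG followed by a number, together with GAS5. The rule gave 29 of the 44659 gene entries. All 29 had at least 1 count in the 96 libraries, and 23 had enough counts to be tested among 14948 tested genes. The libraries came from A375, an established BRAF-mutant human melanoma cell line, and the question put to them here was how the RNA of these hosts behaved when translation, transcription or both were stopped.

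Small nucleolar RNAs (snoRNAs) guide chemical modification of ribosomal and spliceosomal RNA, and in human cells most are cut out of the introns of longer transcripts. In the SNHG genes and GAS5 the introns carry the functional product, whereas the spliced exons hold only short reading frames. Spliced host RNAs are exported to the cytoplasm, are engaged by ribosomes and are textbook substrates of nonsense-mediated decay (NMD), which removes transcripts whose stop codon lies upstream of an exon junction and which needs translation. Several hosts also start with a run of pyrimidines like the 5′ terminal oligopyrimidine tract of ribosomal protein mRNAs, whose translation follows growth signalling.

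Cells were kept for 18 h either in the solvent DMSO or in MAPKi, that is, 500 nM of the BRAF inhibitor vemurafenib with 500 nM of the MEK inhibitor cobimetinib. Translation was then stopped with cycloheximide at 100 µg/ml (CHX), transcription with triptolide at 25 µM (T), or both with the pair of drugs together (TCHX), beside a vehicle arm. Cycloheximide went in 5 min before triptolide, and harvests followed at 0, 1, 3 and 5 h, so that there were 32 groups, each with 3 libraries. All groups shared the A375 background and the same medium, and the labels do not say whether the 3 libraries of a group came from separate cultures, so p-values measure the spread between these libraries, which may be technical. RNA was taken from the cytoplasmic lysate after nuclei had been spun down, and 500 ng of each sample was made into QuantSeq libraries, which are primed on the poly(A) tail and read near the 3′ end, so that 1 read stands for 1 transcript end whatever the length of the RNA.

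The shallowest library held 2381351 counts, the deepest 12520154 and the median one 7143396, and the 29 host genes took between 0.276% and 0.582% of them. The melanocyte lineage genes SOX10, MITF, S100B and DCT were detected in all 96 libraries, whereas the pigment genes MLANA and TYR had median levels of 0.277 and 0.127 CPM. Of 8 markers of other cell types, CD3E and KRT5 were at 0 in every library and VWF, with a median of 0.528 CPM, was seen in the most libraries, 84. Levels without triptolide are given as TMM-scaled CPM (CPM, a count relative to library size, after the TMM scaling of edgeR). Levels with triptolide are given as normalized counts, since triptolide removes RNA from the whole transcriptome. For these, libraries were set equal on 36 genes called stable by a rule after the study. The rule took genes whose CPM in triptolide alone was at least 1.1 times that in vehicle at 0 h. This choice by itself favours falls of other genes in triptolide on this scale, and libraries with both drugs were not used in it. Calls rest on edgeR's quasi-likelihood test over all 14948 genes with adjusted p (Benjamini-Hochberg) below 0.05, and log2 changes are given ± SE. In bulk RNA, fewer cells that hold a transcript and less of it per cell cannot be told apart.

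SNHG25 was the most abundant host by read number, with a mean of 1135 CPM over the 96 libraries, followed by SNHG29 with 853 CPM, SNHG6 with 337, SNHG5 with 309 and SNHG16 with 296. GAS5 stood in place 9 with 120 CPM. SNHG12, in place 13, had 50.8 CPM, and the least abundant of the tested hosts were SNHG20 with 3.77 CPM, SNHG4 with 1.54 CPM and SNHG31 with 0.593 CPM. The 6 hosts that could not be tested were SNHG27 with 121 counts in all 96 libraries together, SNHG26 with 16, SNHG28 with 9, SNHG9 with 6, SNHG22 with 3 and SNHG32 with 2. The table also held 4 entries named SNHG32 with a suffix, with 1 to 50 counts each, which the rule did not take.

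**Figure D1:**
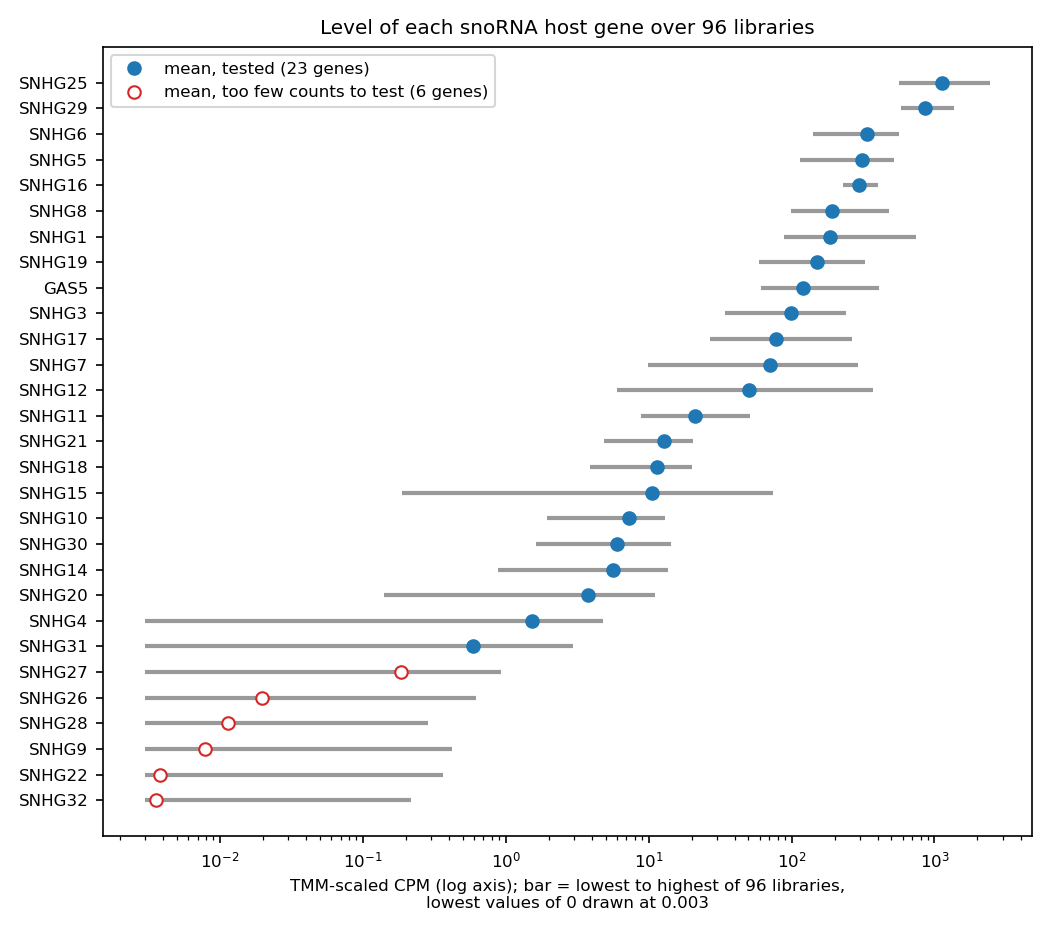
TMM-scaled CPM (log axis) of the 29 snoRNA host genes, with the mean over 96 libraries as a point and the lowest to the highest library as a bar. Means ran from 1135 CPM for SNHG25 to 0.186 CPM or less for the 6 untested genes.

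The hosts differ in the snoRNAs they carry. By the RefSeq gene table of GRCh38, GAS5 (chr1:173858559-173868882, minus strand, 12 exons in its canonical GENCODE 44 transcript) spans 11 snoRNAs, SNHG1 (chr11:62851978-62855953, minus strand, 11 exons) spans 9, and SNHG14 on chromosome 15 spans 84, among them the SNORD116 cluster. SNHG12 (chr1:28578538-28583132, minus strand) spans SNORD99, SNORA61, SNORA44 and SNORA16A, and SNHG7 (chr9:136721366-136728184, minus strand) spans SNORA17A and SNORA17B. SNHG29 (chr17:16438767-16480249, plus strand) spans SNORD49A, SNORD49B and SNORD65. In the canonical transcripts, 14 of the 29 hosts (48.3%) have an exon junction more than 50 nt after the stop of their longest reading frame, the arrangement that NMD is known to read, against 23.9% of 15666 other spliced lncRNA genes. GAS5 has 5 such junctions after a frame of 50 codons and SNHG1 has 7 after a frame of 57 codons, whereas SNHG7, SNHG8 and SNHG12 have none. The hosts had a median of 4 exons and 1316 nt of spliced length, the other lncRNA genes 3 exons and 789 nt. The part of exon number and length in the 2 shares was not tested.

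The first bases of some hosts are shown because part of the hosts share a pyrimidine start with ribosomal protein mRNAs. Each window below holds 10 bases before and 20 bases from the RefSeq start (GRCh38.p14), 5′ to 3′ on the gene's strand, and capitals mark a run of at least 5 letters C or T that begins with C and begins within 5 bases of the start. Such a run was found in 11 of the 25 hosts with a promoter entry (44%) and in 21.1% of all 27305 promoters of the table.

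SNHG5 (chr6:85678714-85678743, minus strand): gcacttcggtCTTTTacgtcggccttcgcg

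SNHG19 (chr16:2155339-2155368, minus strand): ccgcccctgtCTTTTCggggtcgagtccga

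SNHG16 (chr17:76557754-76557783, plus strand): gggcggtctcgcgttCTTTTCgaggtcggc

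SNHG8 (chr4:118278752-118278781, plus strand): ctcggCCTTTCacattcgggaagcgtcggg

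SNHG17 (chr20:38435309-38435338, minus strand): gtgtggcctcagtCCTTCgccgtccctcgc

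SNHG7 (chr9:136728165-136728194, minus strand): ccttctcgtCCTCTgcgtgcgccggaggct

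SNHG12 (chr1:28581854-28581883, minus strand): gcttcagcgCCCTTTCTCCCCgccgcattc

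SNHG1 (chr11:62855866-62855895, minus strand): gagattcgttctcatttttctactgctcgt

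GAS5 (chr1:173869026-173869055, minus strand): tcatgaattcagatgtgtttattttggagc

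The last pair, SNHG1 and GAS5, had no run of that length at the listed start. The GAS5 window lies wholly upstream of the GENCODE interval given for GAS5 above. The SNHG12 window lies inside the interval given for SNHG12. RefSeq and GENCODE starts thus differ for these hosts, and a run at another start would be missed. A match is a description of these letters and not of where transcription began in A375 cells.

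The first comparison asks how 18 h of MAPKi changed the hosts before any other drug was added. At 0 h in the vehicle arm, MAPKi cells had more RNA of 5 of the 23 tested hosts and less of 5 others, against 22.3% of all tested genes higher and 23.6% lower. The higher ones were SNHG25, SNHG19, SNHG18, SNHG16 and SNHG29, and the lower ones were SNHG15, SNHG17, SNHG12, SNHG1 and SNHG3. The hosts thus split, and the median log2 change over the 23 was 0.04, the same as the 0.04 over all genes.

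SNHG25, host of SNORD104, rose by 1.20 ± 0.16 on the log2 scale (adjusted p = 1.17e-09), and SNHG19, host of SNORD60, by 1.06 ± 0.12 (adjusted p = 2.62e-12). SNHG17, which carries the SNORA71 family, fell by 1.47 ± 0.11 (adjusted p = 2.37e-19), SNHG15, host of SNORA9, by 2.21 ± 0.42, and SNHG12 by 1.38 ± 0.20. SNHG1 fell by 0.68 ± 0.11 (adjusted p = 1.44e-07) and SNHG3, host of SNORA73A and SNORA73B, by 0.64 ± 0.17. GAS5 was not called, with a log2 change of -0.16 ± 0.10 (adjusted p = 0.181). With all 4 vehicle times averaged, 7 hosts were higher and 9 lower, and GAS5 was then among the lower ones. Of all 14948 genes, 5406 were higher and 4922 lower in that comparison. SNHG18 was not called without replicate 1, nor SNHG29 without replicate 2.

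Cycloheximide in the absence of triptolide raised a large part of the hosts in DMSO cells. Averaged over 3 and 5 h, 13 of the 23 tested hosts were higher than with vehicle, against 17.3% of all tested genes, and the median log2 change of the hosts was 0.46 where that of all genes was -0.0036. In order of size the 13 were SNHG12, SNHG15, GAS5, SNHG1, SNHG8, SNHG20, SNHG17, SNHG7, SNHG11, SNHG5, SNHG6, SNHG3 and SNHG29. SNHG4 and SNHG14, both of low count, were called lower, against 14.9% of all genes, and neither call held in every fit that left out a replicate: SNHG4 lost it without each replicate and SNHG14 without replicate 1 or replicate 2.

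GAS5, a gene named for its accumulation in growth-arrested cells, showed the change library by library. In DMSO cells at 5 h it had 105, 126 and 119 CPM with vehicle and 390, 413 and 395 CPM with cycloheximide. In MAPKi cells at 5 h it had 98.3, 85.8 and 94.2 CPM with vehicle and 108, 112 and 122 CPM with cycloheximide. The groups did not overlap in either pretreatment, but the gap was wide in DMSO cells only. The log2 change over 3 and 5 h was 1.55 ± 0.07 in DMSO cells (2.94-fold, adjusted p = 1.62e-31) and 0.18 ± 0.07 in MAPKi cells (1.13-fold, adjusted p = 0.045). The difference between the pretreatments was -1.37 ± 0.10 (adjusted p = 9.23e-19), the largest called for a host, and the small rise in MAPKi cells was not called when any 1 of the replicates was left out.

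SNHG1, which carries the SNORD25 to SNORD31 family, rose in both pretreatments. In DMSO cells at 5 h it had 233, 229 and 191 CPM with vehicle and 740, 713 and 668 CPM with cycloheximide. In MAPKi cells, where it started lower, the values were 103, 104 and 92.6 CPM with vehicle and 250, 211 and 266 CPM with cycloheximide. All cycloheximide libraries lay above all vehicle libraries of the same pretreatment. The log2 change was 1.51 ± 0.08 in DMSO cells and 1.05 ± 0.08 in MAPKi cells (adjusted p = 3.6e-29 and 1.05e-19), with a called difference of -0.46 ± 0.11 (adjusted p = 0.00117), which was not called without replicate 2 or with stable-gene scaling.

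SNHG8, host of SNORA24, had 157, 151 and 188 CPM with vehicle and 421, 434 and 479 CPM with cycloheximide in DMSO cells at 5 h. MAPKi cells had 151, 176 and 176 CPM with vehicle and 203, 232 and 209 CPM with cycloheximide. Both sets of cycloheximide libraries were higher, with log2 changes of 1.22 ± 0.09 and 0.30 ± 0.09, and the second was not called without replicate 1. The difference was -0.92 ± 0.12 (adjusted p = 1.51e-08).

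SNHG17 moved by nearly the same factor in both pretreatments from very different starting levels. In DMSO cells at 5 h it had 107, 87.7 and 96.3 CPM with vehicle and 233, 259 and 265 CPM with cycloheximide. MAPKi cells had 34.4, 32.9 and 34.5 CPM with vehicle and 79.2, 84.1 and 89.6 CPM with cycloheximide. No library of 1 arm reached into the other. The log2 changes were 1.17 ± 0.07 and 0.99 ± 0.08 (adjusted p = 3.23e-23 and 4.79e-18), and their difference was not called.

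SNHG29, the second most abundant host, went up in DMSO cells and down in MAPKi cells. In DMSO cells at 5 h it had 857, 860 and 767 CPM with vehicle and 1224, 1170 and 1126 CPM with cycloheximide. In MAPKi cells it had 899, 767 and 733 CPM with vehicle and 673, 581 and 618 CPM with cycloheximide, so that the ranges were apart in both and in opposite order. The log2 changes were 0.42 ± 0.06 (adjusted p = 1.36e-07) and -0.33 ± 0.06 (adjusted p = 2.69e-05), and the difference was -0.75 ± 0.09 (adjusted p = 1.18e-09). The fall in MAPKi cells was not called under stable-gene scaling.

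SNHG5 and SNHG6, hosts of SNORD50A with SNORD50B and of SNORD87, rose in DMSO cells, and their changes differed between the pretreatments. SNHG5 had 218, 205 and 321 CPM with vehicle and 360, 428 and 520 CPM with cycloheximide in DMSO cells at 5 h, and 244, 291 and 317 against 202, 268 and 237 CPM in MAPKi cells. SNHG6 had 233, 224 and 371 against 344, 426 and 566 CPM in DMSO cells, and 254, 297 and 315 against 244, 331 and 276 CPM in MAPKi cells. The libraries of SNHG5 did not overlap in DMSO cells at 5 h, whereas 1 vehicle library of SNHG6 lay within the cycloheximide range, and both hosts overlapped in MAPKi cells. Depth differed between these groups at 5 h in DMSO cells, with 4513416, 3719323 and 7675571 counts in the vehicle libraries and 6648023, 4822640 and 11571408 with cycloheximide. The summed level of SNHG5 and SNHG6 was highest in the deepest library of each group, 693 and 1086 CPM, and the part of depth in the result was not tested. At 3 h, where the depths of the 2 groups overlap, the sum was 536, 684 and 752 CPM with vehicle and 849, 924 and 930 CPM with cycloheximide. Over 3 and 5 h SNHG5 changed by 0.69 ± 0.13 in DMSO cells (adjusted p = 1.06e-05) and SNHG6 by 0.52 ± 0.13 (adjusted p = 0.00127), while SNHG5 had -0.18 ± 0.13 in MAPKi cells. The difference was -0.87 ± 0.18 for SNHG5 (adjusted p = 0.000301) and -0.59 ± 0.19 for SNHG6 (adjusted p = 0.0249), the latter lost without replicate 1 and with stable-gene or total-count scaling.

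SNHG3 rose in DMSO cells by 0.46 ± 0.12 (adjusted p = 0.00091), with 118, 117 and 156 CPM with vehicle and 159, 163 and 225 CPM with cycloheximide at 5 h. MAPKi cells had 82.7, 87.8 and 94.5 CPM with vehicle and 68.4, 86.5 and 82.9 CPM with cycloheximide, which overlap, and the difference of the log2 changes was -0.64 ± 0.16 (adjusted p = 0.00436), not called without replicate 1. SNHG3 shares its strand and locus with RCC1, so its counts are uncertain.

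SNHG16, SNHG25 and SNHG19 were not called higher in either pretreatment. SNHG16, host of SNORD1A to SNORD1C, had 279, 304 and 286 CPM with vehicle and 341, 320 and 312 CPM with cycloheximide in DMSO cells at 5 h, and 276, 264 and 275 against 246, 239 and 240 CPM in MAPKi cells. It was not called in DMSO cells, and in MAPKi cells it was lower by -0.18 ± 0.05 (adjusted p = 0.00534), a call that was lost without replicate 2 and a direction that turned under stable-gene scaling. SNHG25 had 879, 890 and 671 against 892, 839 and 692 CPM in DMSO cells, and 1800, 1382 and 1279 against 1135, 860 and 1122 CPM in MAPKi cells, where its log2 change was -0.38 ± 0.11 (adjusted p = 0.0054). That call was lost without replicate 2 and with stable-gene scaling. SNHG19 had 106, 99.7 and 126 against 84.2, 93.6 and 89.9 CPM in DMSO cells and 185, 197 and 189 against 135, 148 and 159 CPM in MAPKi cells, lower in every cycloheximide library at 5 h, but over 3 and 5 h it was called in neither.

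Of the less abundant hosts, SNHG12 had the largest rise in DMSO cells, 2.23 ± 0.13 on the log2 scale (4.68-fold, adjusted p = 1.28e-24), from 63.9, 61.1 and 62.3 CPM to 313, 347 and 369 CPM at 5 h. In MAPKi cells it rose by 1.15 ± 0.14, and the difference of -1.08 ± 0.19 was called (adjusted p = 1.46e-05). SNHG15 rose by 2.01 ± 0.25 in DMSO cells and by 1.83 ± 0.28 in MAPKi cells, and SNHG11, which carries SNORA60 and SNORA71E, by 0.77 ± 0.14 and 0.92 ± 0.14. SNHG7 rose by 1.14 ± 0.17 and 0.61 ± 0.17 and SNHG20, host of SCARNA16, by 1.19 ± 0.30 and 0.91 ± 0.29. In MAPKi cells the SNHG7 call was lost without replicate 2 and the SNHG20 call without replicate 2 or replicate 3. No difference between the pretreatments was called for SNHG7, SNHG11, SNHG15 or SNHG20.

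**Figure D2:**
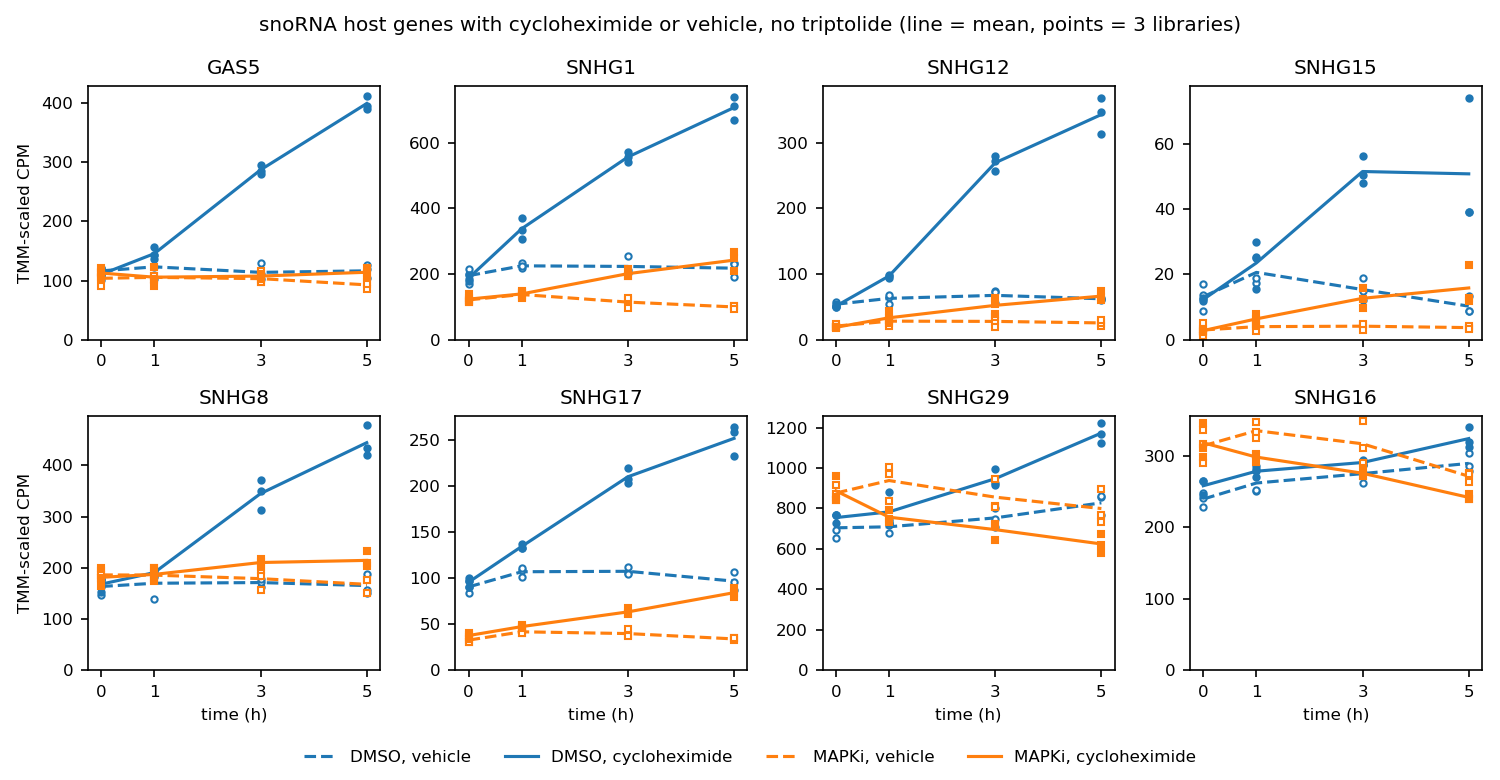
TMM-scaled CPM of 8 host genes against time (h) with cycloheximide (filled symbols, solid lines) or vehicle (open symbols, dashed lines), without triptolide, in DMSO cells (blue circles) and MAPKi cells (orange squares). Points are libraries and lines are means of 3. GAS5 climbed to 390 to 413 CPM with cycloheximide at 5 h in DMSO cells and was at 108 to 122 CPM in MAPKi cells, while SNHG17 climbed in both.

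In MAPKi cells as a whole, 9 of the 23 hosts were called higher with cycloheximide at 3 and 5 h, against 15.9% of all genes, and 3 lower (SNHG16, SNHG25 and SNHG29), against 14.0%. The median host change was 0.06 and that of all genes -0.01. All 9 were also higher in DMSO cells. Without replicate 2, 6 were called higher and 1 lower. The difference between the pretreatments was called for 9 hosts, all with a smaller log2 change in MAPKi cells, against 5.95% of all genes that were called in this direction. The 9 were GAS5, SNHG12, SNHG8, SNHG5, SNHG29, SNHG3, SNHG6, SNHG1 and SNHG16. For SNHG16 this call was lost with total-count scaling, with stable-gene scaling, with no filter and without replicate 1. Setting the libraries equal on the stable genes raised the median of all genes to 0.14 in DMSO and 0.28 in MAPKi cells. The hosts called were then 14 higher and 1 lower in DMSO cells, 9 higher and 0 lower in MAPKi cells, and 6 for the difference. Of all 14948 genes, 3721 were then higher and 861 lower in DMSO cells. In MAPKi cells 5425 were higher and 333 lower, so the share of hosts called higher there was close to that of all genes. The difference was called as smaller in MAPKi cells for 419 of all genes.

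The rise built up with time. At 1 h of cycloheximide SNHG1 was the only host called in DMSO cells, at 0.59 ± 0.11 (adjusted p = 0.00109), where 0.0803% of all genes were called higher. That call was lost when any replicate was left out. In MAPKi cells at 1 h edgeR called no host, 2 had an unadjusted p under 0.05 and DESeq2 called none, against 0.0803% of all genes called in either direction. At 0 h, right after the additions, neither edgeR nor DESeq2 called a host between cycloheximide and vehicle, none had an unadjusted p under 0.05, and 0 of all genes, or 0%, were called. Vehicle alone moved little. Between 0 h and the mean of 3 and 5 h, SNHG16 was called higher in DMSO cells (0.24 ± 0.07, adjusted p = 0.0479, lost when any 1 replicate was left out), against 1.42% of all genes, and in MAPKi cells edgeR and DESeq2 called no host and none had an unadjusted p under 0.05, against 2.67% of all genes.

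Triptolide alone gives the loss of host RNA when no new RNA is made. With normalized counts set on the stable genes, 15 of the 23 hosts were lower at 3 and 5 h than in vehicle at 0 h in DMSO cells and 14 in MAPKi cells, against 48.7% and 56.1% of all genes. The median log2 change was -0.72 for the hosts and -0.47 for all genes in DMSO cells, and -0.59 for both in MAPKi cells. The hosts ranged widely in what was left after 5 h in DMSO cells, relative to the vehicle library of the same number at 0 h. At the low end SNHG20 kept 8.5% ± 7.5 (SD, n = 3), SNHG7 12.9% ± 4.7, SNHG12 19.1% ± 2.3 and SNHG3 30.5% ± 0.8, with the low-count SNHG4 at 14.3% ± 14.6 and SNHG31 at 19.0% ± 17.5 among them. At the other end, SNHG5 kept 97.0% ± 10.4, SNHG14, of low count, 92.8% ± 30.9, SNHG16 90.3% ± 10.2, SNHG6 89.3% ± 7.5 and SNHG29 85.1% ± 4.2. The order was not the same in MAPKi cells, where SNHG16 kept 73.8% ± 7.7 and SNHG19 went from 59.1% in DMSO cells to 88.4% ± 9.5. Over all genes with enough counts, the median was 67.0% in DMSO and 60.3% in MAPKi cells. With TMM scaling, which pulls the median of all genes to -0.01 and 0.04, 9 hosts were lower and 2 higher in DMSO cells (SNHG16 and SNHG29), and 6 lower and 6 higher in MAPKi cells. Of all 14948 genes, 3146 were then lower and 1762 higher in DMSO cells, and 3170 lower and 2782 higher in MAPKi cells.

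Less RNA was lost in MAPKi than in DMSO cells for 4 hosts, against 0.415% of all genes called in that direction. The differences were 0.59 ± 0.14 for GAS5 (adjusted p = 0.00592), 0.51 ± 0.15 for SNHG1 (adjusted p = 0.0469), 0.68 ± 0.20 for SNHG3 (adjusted p = 0.0383) and 0.51 ± 0.14 for SNHG19 (adjusted p = 0.027). GAS5 kept 39.7% ± 4.3 after 5 h in DMSO and 63.8% ± 7.6 in MAPKi cells, and SNHG19 kept 59.1% ± 3.7 and 88.4% ± 9.5. The same 4 hosts were called under TMM scaling. Leaving out any 1 replicate ended all 4 calls: no host was called without replicate 1 or replicate 2, and 1 other host was called without replicate 3. SNHG1 was also not called with the wider set of stable genes, nor SNHG19 with no filter on low counts.

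Adding cycloheximide to triptolide shows what stopping translation does to RNA already made. At 3 and 5 h, 8 of the 23 hosts were higher with both drugs than with triptolide alone in DMSO cells, against 28.4% of all genes, and 12 in MAPKi cells, against 41.4%. The share of hosts called was thus not far from the share of all genes, and the median changes were close too, 0.24 against 0.23 in DMSO and 0.25 against 0.34 in MAPKi cells. The hosts called in DMSO cells were SNHG7, SNHG20, SNHG1, SNHG11, SNHG12, GAS5, SNHG17 and SNHG29. All of these but SNHG29 were also called in MAPKi cells, together with SNHG15, SNHG30, SNHG3, SNHG8 and SNHG16. The SNHG30 call was lost when any 1 replicate was left out and the SNHG15 call without replicate 1 or replicate 2.

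SNHG7 had the largest change. In DMSO cells at 5 h it had 436, 514 and 613 normalized counts at the start, 52.4, 92.9 and 53.3 with triptolide, and 535, 453 and 293 with triptolide and cycloheximide. In MAPKi cells it went from 393, 338 and 365 to 74.3, 88.8 and 91.0 with triptolide and to 359, 298 and 308 with both drugs. The libraries with both drugs were all above those with triptolide alone, and in both pretreatments their range reached into that of the starting libraries. The log2 change was 2.13 ± 0.19 in DMSO cells (4.37-fold, adjusted p = 1.79e-16) and 1.42 ± 0.18 in MAPKi cells (2.67-fold, adjusted p = 3.6e-10). SNHG20 changed by 1.73 ± 0.45 and 0.89 ± 0.34 at much lower counts, and lost the call without replicate 1 in DMSO cells and without replicate 2 or replicate 3 in MAPKi cells.

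SNHG1 fell from 1564, 1590 and 1198 normalized counts in DMSO vehicle at 0 h to 591, 520 and 469 after 5 h of triptolide, and stood at 951, 870 and 934 with both drugs. In MAPKi cells the values were 910, 855 and 912, then 467, 448 and 496, then 761, 659 and 782. With cycloheximide all 6 libraries were above triptolide alone and below the start. The log2 change was 0.84 ± 0.09 in DMSO cells (adjusted p = 7.02e-13) and 0.60 ± 0.09 in MAPKi cells (adjusted p = 3.15e-08).

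GAS5 fell from 917, 897 and 780 to 405, 320 and 305 normalized counts with triptolide in DMSO cells at 5 h, against 587, 507 and 542 with both drugs. In MAPKi cells it went from 678, 844 and 767 to 492, 502 and 455, against 601, 607 and 701. At 5 h the groups with and without cycloheximide did not overlap. At 3 h in MAPKi cells GAS5 kept 74.7%, 63.7% and 72.5% of its starting level with triptolide alone. With both drugs it kept 79.1%, 77.5% and 68.4% there, which overlap. The log2 change was 0.58 ± 0.08 in DMSO cells (adjusted p = 9.6e-09) and 0.25 ± 0.08 in MAPKi cells (adjusted p = 0.00902), the latter lost without replicate 2 or replicate 3 and, under TMM scaling, turned in direction. SNHG17 fell from 753, 621 and 644 to 408, 395 and 373 normalized counts in DMSO cells, against 563, 550 and 610 with both drugs, a log2 change of 0.51 ± 0.08 (adjusted p = 4.2e-07). In MAPKi cells SNHG17 went from 268, 228 and 224 to 127, 130 and 178, against 209, 244 and 333, a log2 change of 0.66 ± 0.09 (adjusted p = 1.23e-09).

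SNHG5, SNHG6, SNHG16 and SNHG29 are the abundant hosts that kept the most RNA in triptolide in DMSO cells, and their values with both drugs follow. SNHG5 had 1718, 2090 and 2109 normalized counts at the start in DMSO cells, 1863, 1840 and 1992 after 5 h of triptolide and 1842, 1902 and 1641 with both drugs. In MAPKi cells SNHG5 had 2161, 2020 and 2206, then 1727, 2084 and 1911, then 1852, 2080 and 2401. The ranges overlap throughout, and the log2 change with cycloheximide was -0.08 ± 0.12 in DMSO and 0.01 ± 0.12 in MAPKi cells. SNHG6 had 2120, 2481 and 2531 at the start in DMSO cells, 2074, 2145 and 2115 with triptolide and 2290, 2137 and 1638 with both. In MAPKi cells SNHG6 had 2336, 2076 and 2189, then 1833, 2144 and 1998, then 2118, 2237 and 2702, and it was called in neither pretreatment.

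SNHG16 had 1882, 1687 and 1762 normalized counts at the start in DMSO cells, 1681, 1704 and 1420 with triptolide and 1665, 1573 and 1671 with both. In MAPKi cells SNHG16 had 2156, 2491 and 2284, then 1713, 1621 and 1754, then 1805, 2056 and 2559, a log2 change with cycloheximide of 0.20 ± 0.06 (adjusted p = 0.00494) that was lost without replicate 2 or replicate 3 and turned under TMM and total-count scaling. SNHG29 had 5983, 4809 and 4910 at the start in DMSO cells, 4841, 4294 and 4176 with triptolide and 4889, 4733 and 5467 with both. Its log2 change of 0.21 ± 0.08 (adjusted p = 0.0331) was near the median of all genes and was lost without replicate 1 or replicate 3, without the shallow library described next, and with total-count scaling, and it turned under TMM scaling. In MAPKi cells SNHG29 had 6256, 6779 and 6296, then 5710, 4873 and 6189, then 5781, 5804 and 6472, and was not called.

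SNHG25 had 6315, 4650 and 4138 normalized counts at the start in DMSO cells, 4151, 3816 and 3643 with triptolide and 4059, 3870 and 5795 with both. In MAPKi cells SNHG25 had 11577, 11531 and 11145, then 10314, 7751 and 10450, then 9173, 8130 and 8576. SNHG19 had 795, 683 and 671, then 436, 416 and 413, then 440, 427 and 399 in DMSO cells, and 1294, 1542 and 1589, then 1227, 1195 and 1474, then 1207, 1654 and 1719 in MAPKi cells. Neither was called with cycloheximide, and SNHG19 kept 59.2% ± 3.6 of its starting level at 5 h in DMSO cells with cycloheximide and 59.1% ± 3.7 without.

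SNHG8 had 1151, 1196 and 1279 normalized counts at the start in DMSO cells, 944, 871 and 929 with triptolide and 970, 895 and 931 with both, which overlap. In MAPKi cells SNHG8 had 1331, 1431 and 1343, then 974, 972 and 1204, then 1089, 1328 and 1772, a log2 change of 0.25 ± 0.08 (adjusted p = 0.00794) that was lost without replicate 2 and turned under TMM scaling. SNHG3 had 910, 933 and 883, then 272, 293 and 267, then 433, 361 and 321 in DMSO cells, where it was not called over 3 and 5 h. In MAPKi cells SNHG3 had 615, 504 and 619, then 231, 295 and 241, then 464, 407 and 535 at 5 h. The log2 change over 3 and 5 h was 0.39 ± 0.12 (adjusted p = 0.00431). At 3 h in MAPKi cells SNHG3 kept 68.2% ± 4.9 with triptolide and 65.9% ± 17.8 with both drugs. Of the times 3 and 5 h, the rise was thus seen at 5 h only. At 1 h, which the test did not use, SNHG3 kept 71.8% ± 19.1 and 91.3% ± 24.8, with overlapping libraries.

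**Figure D3:**
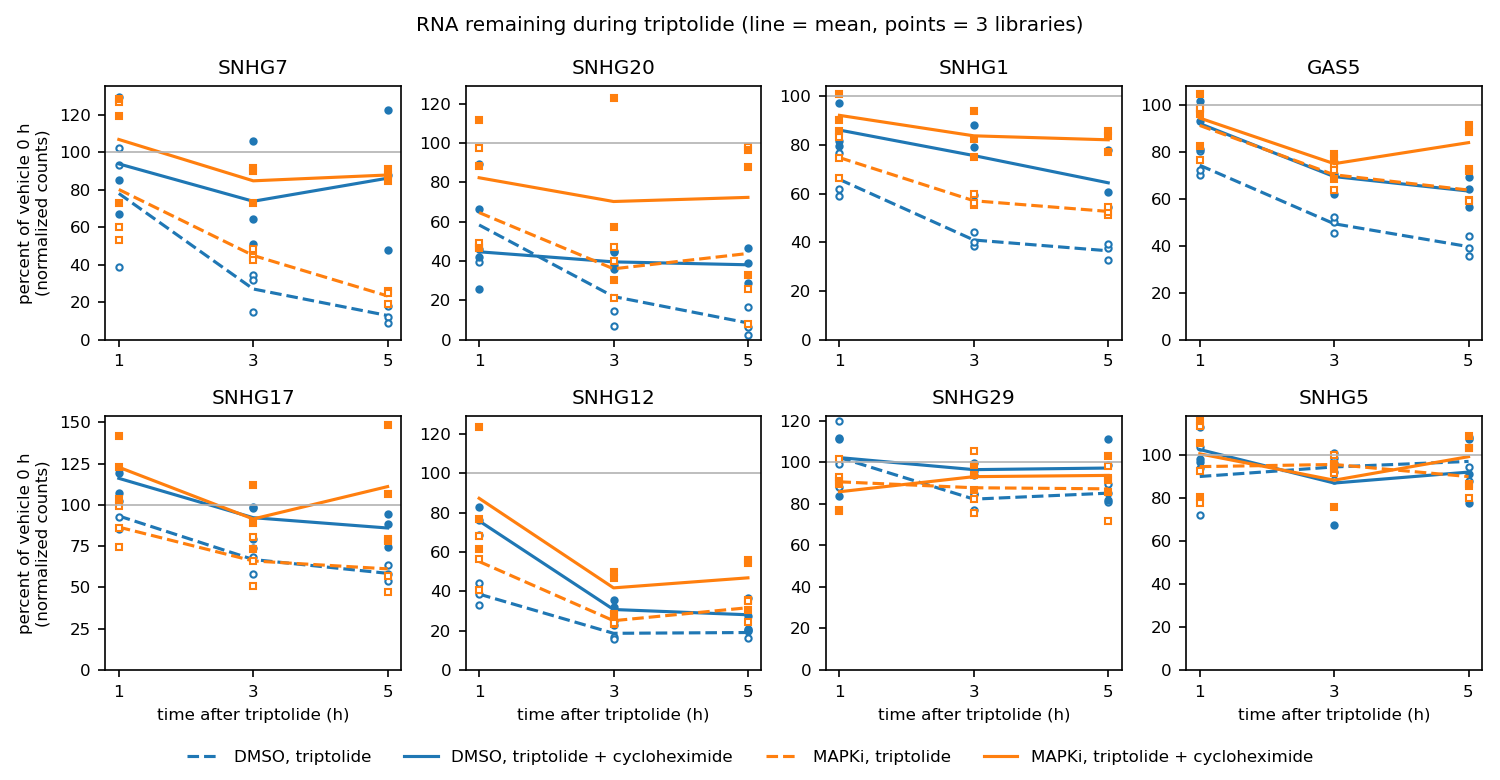
Percent of the vehicle 0 h level (normalized counts, library of the same replicate number) of 8 host genes against time after triptolide (h), with triptolide alone (open symbols, dashed) or with cycloheximide (filled symbols, solid), in DMSO cells (blue circles) and MAPKi cells (orange squares). Points are libraries and lines are means of 3. SNHG7 kept 12.9% with triptolide alone and 86.2% with both drugs at 5 h in DMSO cells, whereas SNHG5 was at 97.0% and 92.0%.

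Which hosts rose with triptolide present depended on the scaling. With TMM in place of the stable genes the median change of all genes went from 0.23 to 0.02 in DMSO cells and from 0.34 to -0.03 in MAPKi cells. The hosts called were then 7 higher and 1 lower in DMSO cells, and 4 higher and 6 lower in MAPKi cells. Of all 14948 genes, 2363 were then higher and 834 lower in DMSO cells, and 2919 higher and 2020 lower in MAPKi cells. SNHG1, SNHG7, SNHG11 and SNHG17 were the 4 called higher in both pretreatments under both scalings. Without replicate 2, 6 hosts were called higher in MAPKi cells, and SNHG11 and SNHG12 were not called in DMSO cells. At 3 h in DMSO cells with both drugs, replicate 1 was a shallow library with 3525808 counts, in which SNHG5 had 1161 normalized counts beside 2112 and 1943 in the others and SNHG7 had 222 beside 546 and 395. Its depth and these levels moved together, and the part of depth in them was not tested. Without it 8 hosts were again called in DMSO cells, SNHG29 no longer among them.

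The difference of the cycloheximide effect between the pretreatments in the presence of triptolide was called for no host by edgeR, 2 had an unadjusted p under 0.05, and DESeq2 called 1, GAS5, against 7.11% of all genes in either direction by edgeR. For GAS5 it was -0.33 ± 0.11 (adjusted p = 0.062). TMM scaling called 3 as smaller in MAPKi cells, GAS5 with -0.48, SNHG1 with -0.39 and SNHG7 with -0.87, and total-count scaling called GAS5. Of all 14948 genes, TMM scaling called 129 as smaller and 420 as larger in MAPKi cells.

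Even with both drugs, some hosts lay below their starting level. At 3 and 5 h, 9 hosts were lower than vehicle at 0 h in DMSO cells and 4 in MAPKi cells, against 22.2% and 18.3% of all genes. SNHG12 was the lowest of them, at -1.77 ± 0.17 in DMSO cells and -1.19 ± 0.19 in MAPKi cells, followed in DMSO cells by SNHG20 at -1.36 ± 0.42 and SNHG3 at -1.28 ± 0.14. GAS5 was at -0.60 ± 0.10 and -0.34 ± 0.10. SNHG7 was not called, with -0.34 in DMSO and -0.22 in MAPKi cells. Under TMM scaling 5 and 1 hosts were called lower, with a median of all genes at 0.00 and 0.03 where the stable genes gave -0.24 and -0.23.

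The effect of cycloheximide with triptolide was then set against its effect without, in 1 test on the stable-gene scale. In DMSO cells the rise was smaller with triptolide for 10 hosts, against 4.21% of all genes, and larger for 2, against 11.6%. In MAPKi cells it was smaller for 4, SNHG12, SNHG1, SNHG17 and SNHG8, against 1.46%. The hosts with the smaller rise in DMSO cells were SNHG12 with a difference of -1.74 ± 0.20, SNHG15 with -1.62 ± 0.36, SNHG8 with -1.26 ± 0.12, GAS5 with -1.14 ± 0.11, SNHG5 with -0.93 ± 0.17, SNHG1 with -0.83 ± 0.12, SNHG17 with -0.82 ± 0.12, SNHG6 with -0.74 ± 0.18, SNHG29 with -0.36 ± 0.11 and SNHG16 with -0.24 ± 0.09. SNHG7 went the other way, by 0.83 ± 0.25 (adjusted p = 0.0126), as did SNHG4 at 2.13 ± 0.65 on few counts, and both calls were lost without replicate 1 or replicate 3. In MAPKi cells the SNHG8 and SNHG12 calls were lost without replicate 1 or replicate 2. The SNHG16 and SNHG29 calls were lost when any 1 replicate was left out. Under TMM scaling 10 and 2 hosts were again called in DMSO cells, and 5 in MAPKi cells.

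**Figure D4:**
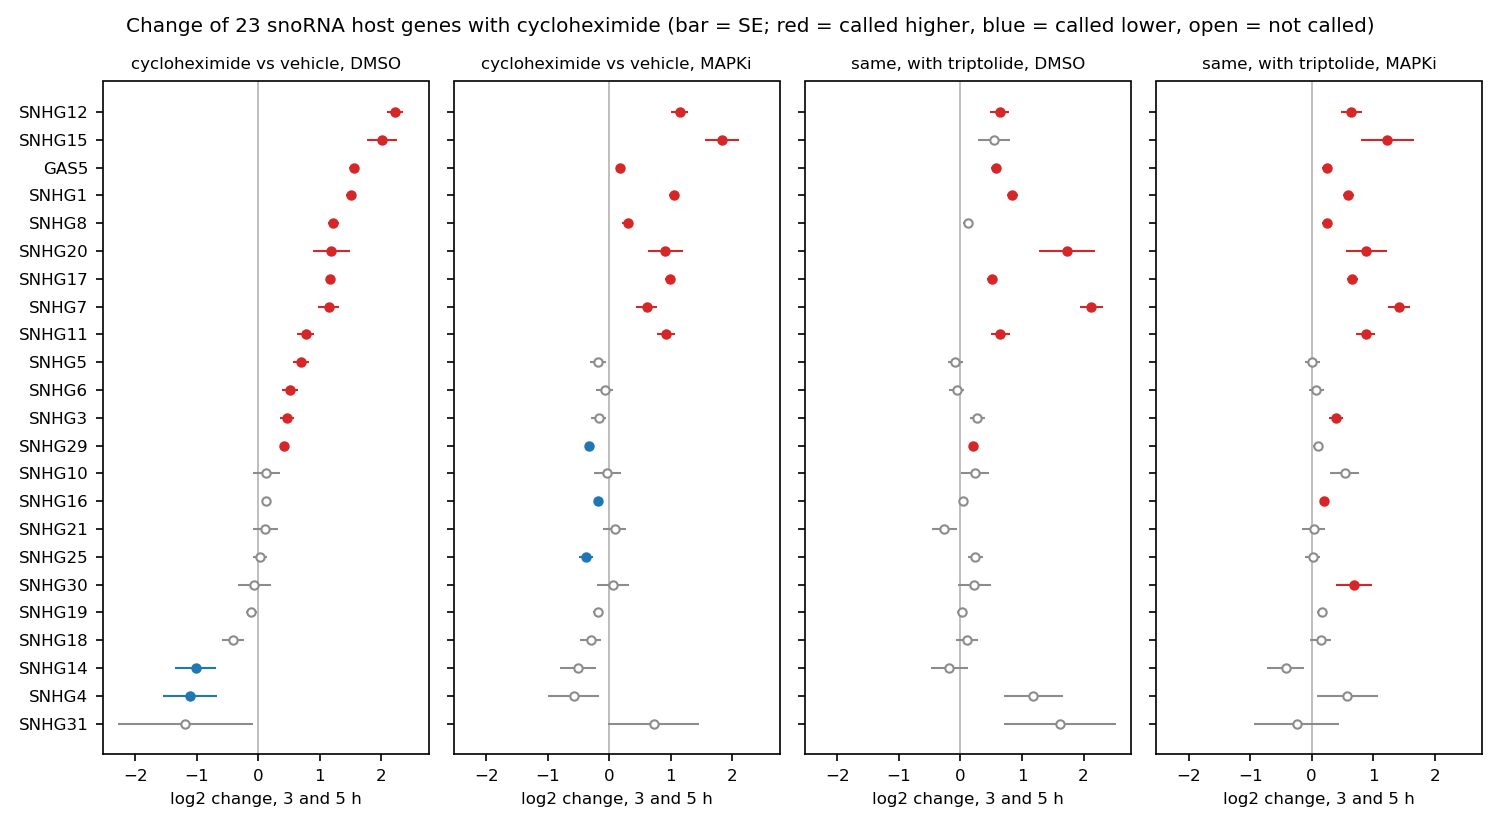
Log2 change (± SE) of the 23 tested host genes at 3 and 5 h with cycloheximide against vehicle (left panels, TMM scaling) and with triptolide and cycloheximide against triptolide alone (right panels, stable-gene scaling), in DMSO and MAPKi cells. Filled red points were called higher, filled blue points lower and open points were not called. SNHG12 reached 2.23 without triptolide and 0.64 with it in DMSO cells, whereas SNHG7 reached 1.14 and 2.13.

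Over the 4 cycloheximide comparisons, 7 hosts were called higher in all (GAS5, SNHG1, SNHG7, SNHG11, SNHG12, SNHG17 and SNHG20), 15 in at least 1 and 8 in none. The same combined counts were not made over all genes, so whether these are unusual was not tested. In the single comparisons, 17.3% and 15.9% of all genes were called higher without triptolide in DMSO and MAPKi cells, and 28.4% and 41.4% with it. The 8 hosts called in none were SNHG4, SNHG10, SNHG14, SNHG18, SNHG19, SNHG21, SNHG25 and SNHG31. Their log2 changes with triptolide in DMSO cells ran from -0.26 for SNHG21 to 1.62 for SNHG31, whose SE of 0.91 reflects 414 counts in all libraries. The comparisons without triptolide share no libraries with those with it.

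The hosts were also sorted by features that the naming rule did not use, as a description. Beside the counts that follow, 17.3% and 15.9% of all genes rose without triptolide in DMSO and MAPKi cells, and 28.4% and 41.4% with it. Of the 12 tested hosts with an exon junction more than 50 nt after the stop, 8 rose with cycloheximide in DMSO cells (median 0.73), and of the 11 without, 5 did (median 0.12). In MAPKi cells it was 6 of 12 (median 0.13) and 3 of 11 (median -0.08). With triptolide it was 6 of 12 (median 0.37) and 2 of 11 (median 0.24) in DMSO cells, where SNHG7 and SNHG12 were the 2 without such a junction, and 6 of 12 (median 0.39) and 6 of 11 (median 0.25) in MAPKi cells. Of 8 tested hosts that carry C/D box snoRNAs and no other kind, 3 rose with cycloheximide in DMSO cells and 0 in MAPKi cells, and of 7 that carry H/ACA box snoRNAs and no other kind, 5 and 4 did. With triptolide present 1 and 2 of the 8, and 2 and 5 of the 7, rose in DMSO and MAPKi cells. With and without the C or T run at the RefSeq start, which for GAS5 lies outside its GENCODE interval, 5 of 10 and 6 of 10 rose in DMSO cells and 4 of 10 and 4 of 10 in MAPKi cells. With triptolide 3 and 5 rose in DMSO cells and 5 and 6 in MAPKi cells. A run further than 5 bases from the listed start was not counted. SNHG29 was thus taken as without, though a C and T run stands 10 bases before its listed start. The split therefore cannot show whether a pyrimidine start goes with the rise. Of the 29 hosts, 21 overlap another gene of the annotation on either strand, SNHG8 with PRSS12, SNHG12 with TRNAU1AP, SNHG16 with ST6GALNAC1 and SNHG29 with LRRC75A among them, and since the sources do not say whether reads were counted by strand, their counts are uncertain. Of the 7 tested hosts with no overlap, 4 rose with cycloheximide in each pretreatment, SNHG1, SNHG11, SNHG15 and SNHG17.

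The TDD index, for decay that depends on translation, expresses the same data per starting RNA, as the normalized count with both drugs minus that with triptolide, divided by the count at 0 h. It could be computed for 22 hosts. Its median was 0.110 for the hosts and 0.119 over 11422 genes in DMSO cells, and 0.155 and 0.180 in MAPKi cells. SNHG7 had the highest host value, 0.60 ± 0.14 (SD, n = 3) in DMSO and 0.52 ± 0.03 in MAPKi cells. SNHG1 had 0.31 ± 0.09 and 0.28 ± 0.04, SNHG17 had 0.26 ± 0.07 and 0.38 ± 0.12, and GAS5 had 0.22 ± 0.05 and 0.12 ± 0.02. No host passed the adjusted threshold between the pretreatments in the linear model of the study, and 1 of 22, SNHG30, had an unadjusted p of at most 0.05, against 15.4% of all genes.

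Genes of the same machinery were read from fixed lists. Of 3 other lncRNA hosts, 2 rose with cycloheximide in DMSO cells, against 17.3% of all genes. Without triptolide in DMSO cells EPB41L4A-AS1 rose by 2.32 (adjusted p = 1.77e-35) and ZFAS1 by 2.35 (adjusted p = 8.99e-16), while DANCR had 0.11 and was not called. In MAPKi cells EPB41L4A-AS1 rose by 0.71, ZFAS1 had 0.38, not called, and DANCR was lower, at -0.28 (adjusted p = 0.0152). With triptolide in DMSO cells EPB41L4A-AS1 rose by 0.77 (adjusted p = 2e-09) and ZFAS1 had 0.01, while in MAPKi cells with triptolide EPB41L4A-AS1 had 0.19 (adjusted p = 0.122), ZFAS1 -0.16 and DANCR -0.03, not called. The difference between the pretreatments without triptolide was called, as smaller in MAPKi cells, for all 3, against 5.95% of all genes.

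Protein-coding snoRNA hosts, which make both a snoRNA and a protein, were split. Of 30 tested, 9 rose and 3 fell with cycloheximide in DMSO cells (median 0.03), and 13 rose and 1 fell with triptolide present (median 0.14). In MAPKi cells 10 rose and 9 fell without triptolide (median 0.02), and 20 rose with it (median 0.27). Over all genes, the shares called higher were 17.3% and 28.4% in DMSO cells and 15.9% and 41.4% in MAPKi cells, without and with triptolide. PPAN, a ribosome biogenesis factor, rose by 0.59 without and 2.05 with triptolide, WDR43 by 0.51 and 1.01, and PRPF39 by 0.44 and 0.99 in DMSO cells. The snoRNP proteins and assembly factors had 5 higher and 2 lower of 17 without triptolide and 5 higher with it in DMSO cells, and 8 and 13 higher in MAPKi cells. Of these, 5 of 17 with triptolide in DMSO cells is about the share of all genes. Among them was NUFIP1, an assembly factor of C/D particles, at 0.65 and 1.00 in DMSO cells. In MAPKi against DMSO cells at 0 h, 14 of these 17 were lower, against 23.6% of all genes, with a median of -0.89.

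Transcripts known from NMD studies were also counted. Of 15 such mRNAs, 13 were higher with cycloheximide in DMSO cells (median 1.07) and 12 in MAPKi cells (median 0.56), and with triptolide 10 and 14 were (medians 0.33 and 0.66). Over all genes, 17.3% and 15.9% were called higher without triptolide in DMSO and MAPKi cells, and 28.4% and 41.4% with it. GADD45B, a stress-response gene, rose by 3.76 without and 5.38 with triptolide in DMSO cells, GADD45A by 1.62 and 2.25, and the splicing kinase gene CLK1 by 2.17 and 2.47. Among 17 NMD factors, whose own mRNAs are known to respond to the pathway, 6 rose without and 12 with triptolide in DMSO cells, SMG9 by 0.43 and 1.91, UPF2 by 0.64 and 0.82 and UPF3B by 0.29 and 0.61. In MAPKi cells 8 and 17 of these factors rose. Ribosomal protein genes, which share the pyrimidine start with part of the hosts, had 2 higher and 22 lower of 79 with cycloheximide in DMSO cells (median -0.08) and 62 lower in MAPKi cells (median -0.31), where 14.9% and 14.0% of all genes were lower. With triptolide 1 rose, RPL7L1 at 0.30, and 1 fell, RPL22L1 at -0.38, in DMSO cells (median 0.03), where 28.4% of all genes were higher. Both were taken by symbol and are named as like a ribosomal protein gene. No other of the 79 was called there, RPL32 among them at 0.14. In MAPKi cells with triptolide 15 rose and 1 fell (median 0.08), against 41.4% of all genes that were higher.

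The snoRNAs themselves are mostly outside the reach of poly(A)-primed cytoplasmic libraries. Of the 142 entries named for a snoRNA inside a host, 85 had a count and 23 could be tested. SNORD50A, in SNHG5, had 16639 counts in all libraries and SNORD104, in SNHG25, had 9863. With cycloheximide 0 of the 23 rose in edgeR's test in either pretreatment, with 0 in DMSO and 1 in MAPKi cells higher at an unadjusted p under 0.05, and DESeq2 also called 0 higher. In DMSO cells 1 fell, and in MAPKi cells 3 fell, with log2 changes of -0.67 for SNORD104, -0.67 for SNORD50A and -2.83 for SNORD116-21. Over all genes, 17.3% and 15.9% were higher and 14.9% and 14.0% lower in DMSO and MAPKi cells, so the 3 of 23 are near the share of all genes. With triptolide present 3 rose in DMSO cells, SNORD104 by 0.82, SNORA24 by 1.5 and SNORA9 by 2.25, against 28.4% of all genes. DESeq2 called 2 higher there. In MAPKi cells with triptolide 0 of the 23 were called in edgeR's test and 0 in DESeq2's, with 1, lower, at an unadjusted p under 0.05, and SNORD104, SNORA24 and SNORA9 had -0.38, -0.51 and -0.05. SNORD81, in GAS5, had 0.51 with cycloheximide in DMSO cells where GAS5 had 1.55, and was not called. Such reads can come from host precursors that keep the intron, and which RNA they came from was not tested.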

How the data were processed

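The authors deposited raw counts per gene for 96 QuantSeq libraries in 1 table. Per the labels, reads were handled with fastp 0.20.1, HISAT2 2.2.1 and HTSeq 0.13.5 on GRCh38.p13, and the study's methods describe counting on exons. Whether strand was used is not given in the sources used here. All 96 count columns were mapped to samples by their labels, and no molecular identifiers are described. The SEs from edgeR and the SDs over 3 libraries include the spread between libraries.

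From the deposited counts, edgeR 4.0.16 in R 4.3.3 kept 14948 genes (filterByExpr, 32 groups), and its quasi-likelihood model took all libraries, each group having its own mean, with two-sided tests and Benjamini-Hochberg adjustment. Library sizes were scaled by TMM, or, for contrasts with triptolide, by DESeq2 median-of-ratios factors over 36 stable genes: over 0.2 CPM in vehicle at 0 h and at least 1.1 times that in triptolide at both 3 and 5 h, with an initial CPM over 10% of the later values, in all replicates. No host was among them. DESeq2 1.42.0 was an alternative, along with other scalings, no filter, a replicate term and leaving out replicates. Stable-gene scaling of the comparisons without triptolide, and leaving out the shallow DMSO TCHX library at 3 h, were chosen after seeing the data. The TDD index was fitted with pretreatment, time and replicate for genes with a mean of at least 10 normalized counts at 0 h. Values in every library were given for GAS5 and the 10 other hosts with the highest mean CPM, other tested hosts by change, hosts called in an interaction by name, and at most 3 genes of each other list, those with the smallest adjusted p with both drugs against triptolide in DMSO cells. Per-library values of SNHG7 and SNHG12 fall outside this rule and were chosen after their values had been seen. The members and lists were chosen with earlier results of these data known. The model was tested on simulated data. Gene positions came from GENCODE 44 and start sequences and snoRNA positions from RefSeq tables, with all 29 hosts matched by symbol and 25 having a start sequence.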

Additional observations from a re-analysis of the deposited data

Results flagged for a closer look

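Each of the following differed between the pretreatments by a test of the difference itself (edgeR interaction, adjusted p under 0.05). The rise with cycloheximide in the absence of triptolide at 3 and 5 h was smaller in MAPKi than in DMSO cells, on the log2 scale, by -1.37 for GAS5, -1.08 for SNHG12, -0.92 for SNHG8, -0.87 for SNHG5, -0.75 for SNHG29, -0.64 for SNHG3, -0.59 for SNHG6, -0.46 for SNHG1 and -0.30 for SNHG16. The GAS5, SNHG12, SNHG8, SNHG5 and SNHG29 calls held in every alternative run, including stable-gene scaling, an alternative chosen after seeing the data.

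The change after triptolide at 3 and 5 h against vehicle at 0 h was higher in MAPKi than in DMSO cells by 0.59 for GAS5, 0.51 for SNHG1, 0.68 for SNHG3 and 0.51 for SNHG19. All 4 calls were lost when any 1 replicate was left out, and those of GAS5 and SNHG3 held under every scaling tried.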

How the results depend on the processing

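Counts below are of hosts called in both directions together. Of 1225 alternative values of single called hosts, 1043 kept direction and call, 165 kept direction and lost the call, 5 gained it and 12 reversed. MAPKi against DMSO went from 10 to 16 with the mean over 4 vehicle times. The change of TCHX against T between pretreatments, 0 at first, was 3 with TMM and 1 each with total counts, the wider stable set, DESeq2, no filter and without replicate 1 of the DMSO TCHX 3 h libraries. TCHX against T in MAPKi cells went from 12 to 4 with total counts, and T against vehicle in MAPKi cells from 14 to 9. TCHX against vehicle 0 h went from 9 to 5 in DMSO cells and from 4 to 1 in MAPKi cells with TMM, and to 1 in MAPKi cells with total counts. CHX at 1 h in DMSO cells went from 1 to 2 with no filter, the vehicle change in DMSO cells from 1 to 0 with DESeq2 size factors, and the hosts with a higher TDD index in MAPKi cells from 15 of 22 to 7 of 21 with TMM. The cause was not tested.

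Leaving out 1 replicate gave 7 to 11 for CHX in MAPKi cells, 0 to 0 for CHX at 1 h in DMSO cells, 6 to 10 for TCHX against T in MAPKi cells, 0 to 1 for the triptolide difference, 2 to 4 for TCHX against vehicle and 2 to 4 for the cycloheximide effect with minus without triptolide, both in MAPKi cells, and 0 to 0 for the vehicle change in DMSO cells.

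Reversed log2 changes were 0.13 for SNHG16 with CHX in MAPKi cells (stable genes). For TCHX against T they were -0.0074 for SNHG29 in DMSO cells and -0.12 for GAS5, -0.12 for SNHG8 and -0.17 for SNHG16 in MAPKi cells with TMM, and -0.027 for SNHG16 with total counts. For T against vehicle they were 0.12 for SNHG25 and 0.21 for SNHG29 with TMM and 0.059 for SNHG29 with total counts in DMSO cells, and 0.042 for GAS5, 0.25 for SNHG8 and 0.24 for SNHG16 with TMM in MAPKi cells.

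Over 45 same-numbered pairs of groups, the correlation of deviations ran from -0.17 to 0.36 (median 0.03). The own number was highest in 20. This cannot show that the libraries were unpaired, and the column labels carry the same prefix for a replicate number in every group. Percent remaining and the TDD index pair libraries by that number. With the replicate block the counts were 13 for CHX and 16 for T in MAPKi cells, 9 for TCHX against T in DMSO cells, 5 for TCHX against vehicle in MAPKi cells, and as without it elsewhere. Depth limits SNHG4, SNHG31 and the 6 untested hosts.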
